A study of Mus musculus with 12 samples.

Results

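A set of 10 genes of Fc receptor signaling was followed in hearts of wild-type (WT) mice and of knock-in (KI) mice that carry the S14A form of Bcl-xL. They were taken by symbol from the 13552 genes in the table: the receptors Fcgr3 and Fcgr2b, the signaling chains Fcer1g and Tyrobp, the kinases Lyn and Syk, the effectors Vav1 and Plcg2, and Cd68 and Csf1r as references for macrophages. All 10 were found. The question was whether the first 8 move with surgery and genotype, and whether they track the references.

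Hearts were collected 9 h after surgery from 12 mice, 3 in each group. WT sham and WT TAC hearts came from male C57BL/6J mice with unaltered Bcl-xL. KI sham and KI TAC hearts came from mice of the same background in which serine 14 of Bcl-xL, a mitochondrial survival protein, is replaced with alanine. In transverse aortic constriction (TAC) the aorta is tied to a fixed width so that the left ventricle pumps against a higher pressure, and sham surgery leaves the aorta open. The knock-in is germline and so present in leukocytes as well as in cardiomyocytes. Per the methods, WT mice were purchased, and a difference in where the mice came from cannot be told apart from the knock-in in a comparison of genotypes. Depth was 23650191 to 32455166 reads on genes per heart, mitochondrial genes took 6.36% to 12.5% of them, and the 10 genes had between 54 (Vav1) and 4142 (Syk) reads in a heart. Cardiomyocyte genes dominated every heart, with a summed level of 6 markers between 12448 and 22650 RPKM (reads scaled to exon length and library depth), against 58.4 to 188 RPKM for 8 pan-leukocyte and myeloid markers.

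Fc receptors bind the constant part of antibodies and so let myeloid cells and mast cells respond to immune complexes. Activating receptors such as that encoded by Fcgr3 have no signaling motif of their own and pair with the chain encoded by Fcer1g, whose immunoreceptor tyrosine-based activation motif (ITAM) is phosphorylated by Src-family kinases such as Lyn. The doubly phosphorylated ITAM recruits Syk, which acts on Vav1, a guanine nucleotide exchange factor, and on Plcg2, a phospholipase C that raises calcium. Tyrobp encodes DAP12, a second ITAM chain that serves other myeloid receptors, and Fcgr2b encodes the inhibitory Fc receptor, which carries an inhibitory motif (ITIM) and recruits phosphatases. Resident macrophages of the heart, and monocytes and neutrophils that enter after injury, express most of these genes. In heart tissue a lower RNA level cannot be told apart from fewer cells that make that RNA.

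The coding stretches below show the difference that defines the activating chains and the inhibitory receptor, with tyrosine codons of the motif in capitals. They were read on the coding strand from GENCODE M21 transcripts of GRCm38. The Fcer1g ITAM lies on the minus strand within chr1:171229889-171230072 and is split over exons 4 and 5 of 5, at residues 65 to 79 of 86. The Tyrobp ITAM lies on the plus strand within chr7:30415670-30417382, also split over exons 4 and 5 of 5, at residues 92 to 106 of 114. The Fcgr2b ITIM lies on the minus strand at chr1:170961071-170961088, in exon 8 of 8, at residues 317 to 322 of 340.
Fcer1g ITAM: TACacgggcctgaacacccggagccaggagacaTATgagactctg
Tyrobp ITAM: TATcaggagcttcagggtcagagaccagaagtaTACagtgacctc
Fcgr2b ITIM: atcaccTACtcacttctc
Both ITAM stretches were 45 bases with 2 tyrosine codons each, and the ITIM stretch was 18 bases with 1.

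Upstream windows of 250 bases ending at the annotated start site were found in RefSeq (GRCm38.p6) for 7 of the 10 genes. Each was searched on both strands for GAGGAA, the core bound by the myeloid factor PU.1, which contains the shorter GGAA core shared by other ETS factors. The letters were present in a window of 4 of the 7 genes (Fcgr3, Syk, Vav1 and Cd68), and in a window of 26.1% of the 10341 genes of the table that had one (22.5% of 13275 windows). Windows of 3 genes are shown, of a gene with the letters 6 bases before the start, of one with them 11 bases before it, and of one without them, with matches in capitals. They are Fcgr3 (chr1:171059404-171059653, minus strand), Vav1 (chr17:57278850-57279099, plus strand) and Fcer1g (chr1:171234350-171234599, minus strand).
Fcgr3: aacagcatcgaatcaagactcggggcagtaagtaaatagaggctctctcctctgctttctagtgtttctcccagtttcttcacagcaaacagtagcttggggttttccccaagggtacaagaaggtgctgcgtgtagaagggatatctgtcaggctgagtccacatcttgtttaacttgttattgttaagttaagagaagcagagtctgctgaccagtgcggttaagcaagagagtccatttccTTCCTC
Vav1: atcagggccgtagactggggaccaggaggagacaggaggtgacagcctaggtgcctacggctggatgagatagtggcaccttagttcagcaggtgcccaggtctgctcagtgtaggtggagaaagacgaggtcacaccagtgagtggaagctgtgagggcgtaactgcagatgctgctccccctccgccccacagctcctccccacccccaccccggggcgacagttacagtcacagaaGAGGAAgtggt
Fcer1g: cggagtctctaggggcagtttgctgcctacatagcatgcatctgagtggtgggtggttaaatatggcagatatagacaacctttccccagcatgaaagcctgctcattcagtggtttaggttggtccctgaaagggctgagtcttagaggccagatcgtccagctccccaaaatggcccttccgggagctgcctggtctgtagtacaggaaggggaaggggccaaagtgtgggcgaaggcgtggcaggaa
All 3 of these genes, with and without the letters, were higher after TAC in both genotypes.

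In the annotation used here (GENCODE M21, GRCm38), 3 of the genes lie near each other on chromosome 1, on the minus strand: Fcgr2b (chr1:170958617-170976547), Fcgr3 (chr1:171051174-171064935) and Fcer1g (chr1:171229572-171234365). The others are spread over the genome, among them Lyn (chr4:3678115-3813122), Tyrobp (chr7:30413760-30417585), Plcg2 (chr8:117498291-117635142), Syk (chr13:52583173-52648792) and Vav1 (chr17:57279100-57328031), all on the plus strand, and Cd68 (chr11:69664213-69666153) on the minus strand. RPKM values sum reads over the exons of each gene, so they do not separate its isoforms.

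In WT hearts, TAC raised 7 of the 10 genes and lowered none. The receptors, the signaling chains, Syk and Vav1 rose, Cd68 rose by the most on the log2(RPKM + 1) scale, and Lyn, Plcg2 and Csf1r did not pass the test. Over all 11240 genes tested, 6.96% were called higher and 4.60% lower at a Benjamini-Hochberg adjusted p under 0.05 (limma). The median difference was 0.75 on the log2(RPKM + 1) scale over the 10 genes and 0.04 over all genes.

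**Figure D1:**
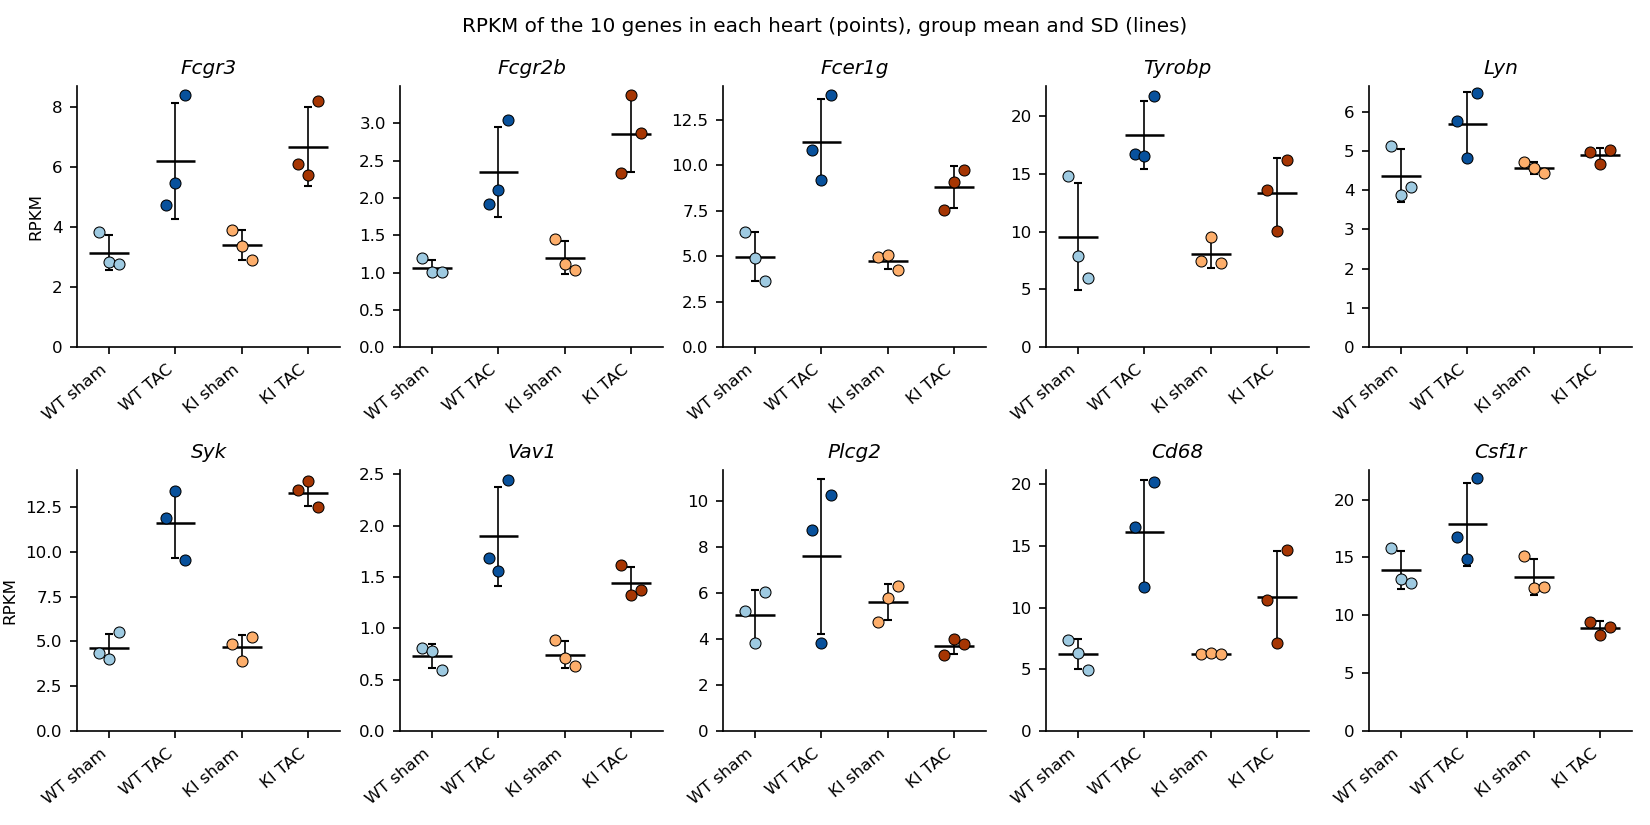
RPKM of each of the 10 genes (vertical axis, from 0) in each heart (points) by group (horizontal axis), with the group mean (line) and SD (bar), n = 3 hearts per group. All TAC hearts lie above all sham hearts of their genotype for Fcgr3, Fcgr2b, Fcer1g, Tyrobp, Syk, Vav1 and Cd68, while the 3 KI TAC hearts are the lowest of all 12 for Csf1r. The share of all genes whose groups separate in this way was not taken.

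Fcgr3 RNA was 3.82, 2.85 and 2.78 RPKM in WT sham mice 1, 2 and 3 and 4.73, 5.47 and 8.40 RPKM in WT TAC mice 7, 9 and 10. The groups did not overlap, and mouse 10 was the highest. The log2 difference was 0.77 (SE 0.20, adjusted p = 0.0250). Fcgr2b, the inhibitory receptor, had 1.19, 1.00 and 1.00 RPKM in sham hearts and 1.91, 2.10 and 3.04 RPKM in TAC hearts. Here too every TAC heart was above every sham heart (log2 difference 0.69, SE 0.16, adjusted p = 0.0129). Fcgr2b and Fcgr3 are close paralogs on the same chromosome, and how the deposited counting divided reads from stretches they share is uncertain.

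The shared chain Fcer1g was at 6.34, 4.89 and 3.65 RPKM in the WT sham hearts. It was at 10.9, 9.20 and 13.8 RPKM in the WT TAC hearts, all of them above the sham hearts. The log2 difference was 1.05 (SE 0.20, adjusted p = 0.00450). Tyrobp had the widest sham spread of the 10 genes on the log2 scale, with 14.8 RPKM in WT sham mouse 1 against 7.92 and 5.95 RPKM in mice 2 and 3. TAC hearts reached 16.7, 16.6 and 21.8 RPKM. The log2 difference of Tyrobp was 0.95 (SE 0.27, adjusted p = 0.0344), and it passed the threshold in 1 of the 6 fits that left out a WT heart.

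The kinases split. Syk was at 4.34, 4.02 and 5.53 RPKM in WT sham hearts and at 11.9, 13.4 and 9.54 RPKM after TAC, so that the groups did not overlap and the log2 difference was 1.16 (SE 0.17, adjusted p = 0.00110). Lyn was at 5.13, 3.87 and 4.09 RPKM in sham and 5.77, 4.81 and 6.47 RPKM in TAC hearts. The Lyn groups overlapped, and the log2 difference of 0.32 (95% interval 0.00 to 0.64, adjusted p = 0.185) did not pass the test. Vav1 stayed below 1 RPKM in all 3 WT sham hearts (0.81, 0.78 and 0.60 RPKM) and reached 1.69, 1.56 and 2.45 RPKM in TAC hearts. Because only TAC hearts reached 1 RPKM, Vav1 passed the filter on low values through the groups in which it was high. Its log2 difference was 0.73 (SE 0.14, adjusted p = 0.00457), and 6 of the other 9 genes were called. Plcg2 was scattered, with 5.20, 3.85 and 6.05 RPKM in sham and 8.73, 3.81 and 10.3 RPKM in TAC hearts. The low TAC value was that of mouse 9, and the log2 difference of 0.44 (SE 0.26, adjusted p = 0.295) became 0.81 (adjusted p = 0.0218) without that mouse.

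The macrophage references did not move alike. Cd68, a lysosomal glycoprotein abundant in phagocytes, went from 7.40, 6.36 and 4.98 RPKM in WT sham to 16.6, 11.7 and 20.2 RPKM in WT TAC hearts (log2 difference 1.22, SE 0.24, adjusted p = 0.00601). Csf1r, the receptor for the macrophage growth factors CSF1 and IL-34, was at 15.8, 13.2 and 12.8 RPKM in sham and 16.8, 14.9 and 21.9 RPKM in TAC hearts. Its groups overlapped (log2 difference 0.33, SE 0.17, adjusted p = 0.241). Fcer1g, Syk, Vav1 and Cd68 were called in each of the 6 fits that left out a WT heart. Of the 10 genes, 4 instead of 7 were called without WT sham mouse 2 or without WT sham mouse 3, since Fcgr2b, Fcgr3 and Tyrobp then missed the threshold. The share of all genes called higher was then 3.48% and 3.62%.

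In KI hearts, TAC raised 5 of the 10 genes, Fcgr3, Fcgr2b, Fcer1g, Syk and Vav1, and lowered 1, Csf1r. Across all genes 8.57% were called higher and 14.7% lower. The median difference was 0.65 over the 10 genes and -0.10 over all genes, so the table as a whole leaned downward after TAC in KI hearts. Quantile normalization moved the median of all genes by 0.08 and median-ratio scaling by 0.13, and the 10 genes kept their direction under both.

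Fcgr3 had 3.91, 3.38 and 2.91 RPKM in KI sham mice 1, 2 and 3 and 6.10, 5.73 and 8.18 RPKM in KI TAC mice 5, 6 and 7 (log2 difference 0.79, SE 0.20, adjusted p = 0.0124). Fcgr2b had 1.45, 1.12 and 1.04 RPKM in sham and 2.34, 3.37 and 2.86 RPKM in TAC hearts, with no overlap (log2 difference 0.81, SE 0.16, adjusted p = 0.00278). Both receptors, activating and inhibitory, thus rose in KI hearts. Fcer1g was at 4.96, 5.04 and 4.23 RPKM in KI sham and at 7.51, 9.07 and 9.76 RPKM in KI TAC hearts. Its log2 difference was 0.76 (SE 0.20, adjusted p = 0.0132). Tyrobp was at 7.48, 9.49 and 7.30 RPKM in sham and 13.6, 10.1 and 16.2 RPKM in TAC hearts. The Tyrobp groups did not overlap, but the log2 difference of 0.64 (SE 0.27, adjusted p = 0.0983) missed the threshold. It passed under quantile normalization (adjusted p = 0.0490) and median-ratio scaling (adjusted p = 0.0347).

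Syk gave the largest difference of the 10 genes in KI hearts, from 4.84, 3.92 and 5.27 RPKM in sham to 13.4, 13.97 and 12.5 RPKM in TAC hearts (log2 difference 1.34, SE 0.17, adjusted p = 0.000197). Lyn was nearly level, at 4.72, 4.56 and 4.43 RPKM in sham and 4.98, 4.67 and 5.02 RPKM in TAC hearts (log2 difference 0.08, 95% interval -0.24 to 0.40, adjusted p = 0.728). Vav1 went from 0.89, 0.71 and 0.63 RPKM to 1.62, 1.33 and 1.38 RPKM. The log2 difference of Vav1 was 0.49 (SE 0.14, adjusted p = 0.0217), subject to the filter noted above, and without Vav1 4 of the other 9 genes rose and 1 fell. Vav1 passed the threshold in 3 of the 6 fits that left out a KI heart. Plcg2 had 4.76, 5.77 and 6.30 RPKM in sham and 3.32, 4.01 and 3.80 RPKM in TAC hearts. Every KI TAC heart was below every KI sham heart, and the log2 difference of -0.49 (SE 0.26, adjusted p = 0.196) did not pass the test.

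Cd68 was steady in KI sham hearts (6.22, 6.33 and 6.28 RPKM) and ranged from 7.18 RPKM in KI TAC mouse 6 to 10.7 and 14.7 RPKM in mice 5 and 7. The groups did not overlap, and the log2 difference of 0.65 (SE 0.24, adjusted p = 0.0647) missed the threshold, which it passed under quantile normalization (adjusted p = 0.0322) and median-ratio scaling (adjusted p = 0.0153). Csf1r was at 15.1, 12.4 and 12.5 RPKM in KI sham and at 9.45, 8.32 and 8.95 RPKM in KI TAC hearts. All TAC values were lower, and the log2 difference was -0.53 (SE 0.17, adjusted p = 0.0419). The Csf1r call was lost under quantile normalization (adjusted p = 0.0541), under median-ratio scaling (adjusted p = 0.0893) and in each of the 6 fits that left out a KI heart (adjusted p between 0.0593 and 0.130). Leaving out KI sham mouse 3 left 2 genes called of the 6, Fcgr2b and Syk, which were called in all 6 such fits. In the fit without that mouse 5.23% of all genes were called higher and 7.70% lower.

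**Figure D2:**
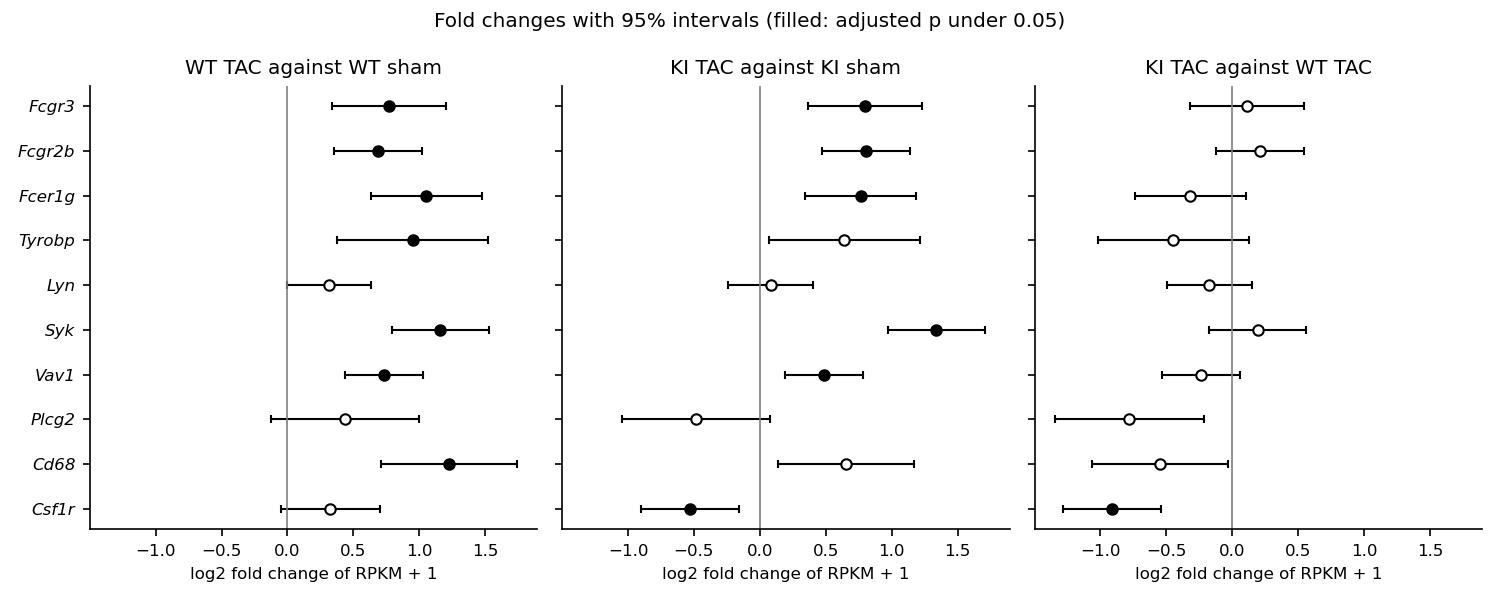
Difference of each of the 10 genes in 3 comparisons, on the log2(RPKM + 1) scale (horizontal axis), with 95% intervals; filled points passed an adjusted p of 0.05. Syk lies farthest to the right in KI TAC against KI sham, at 1.34, and Csf1r is the single filled point in KI TAC against WT TAC, at -0.91.

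Between the genotypes after TAC, 1 of the 10 genes was called, Csf1r, which was lower in KI TAC hearts. Over all genes 2.92% were called higher and 8.13% lower in KI TAC hearts, with a median of -0.12. Quantile normalization moved that median by 0.12 and median-ratio scaling by 0.15. For Csf1r, the 8.32 to 9.45 RPKM of KI TAC hearts lay wholly below the 14.9 to 21.9 RPKM of WT TAC hearts (log2 difference -0.91, SE 0.17, adjusted p = 0.00913), and the call held under quantile normalization (-0.84, adjusted p = 0.0130) and median-ratio scaling (-0.73, adjusted p = 0.0170). It was at the threshold without KI TAC mouse 6 (adjusted p = 0.05001, not called) and in a fit of only the TAC hearts (adjusted p = 0.0526).

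The other 9 genes gave log2 differences from -0.78 for Plcg2 (SE 0.26, adjusted p = 0.0682) to 0.21 for Fcgr2b (SE 0.16, adjusted p = 0.384). Tyrobp was lower in every KI TAC heart than in every WT TAC heart, but its log2 difference of -0.45 (95% interval -1.02 to 0.12, adjusted p = 0.272) did not pass. Fcer1g differed by -0.32 (95% interval -0.74 to 0.10), Fcgr3 by 0.11 (-0.32 to 0.54), Syk by 0.19 (-0.17 to 0.56), Lyn by -0.17 (-0.49 to 0.15) and Vav1 by -0.24 (-0.53 to 0.06), and these intervals include differences of either sign. Cd68 differed by -0.55 (SE 0.24, adjusted p = 0.143). Plcg2 joined Csf1r without WT TAC mouse 9 (-1.15, adjusted p = 0.00358) and Cd68 joined it without KI TAC mouse 7 (-0.78, adjusted p = 0.0426).

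Sham hearts of the genotypes did not separate. No gene of the 10 was called in KI sham against WT sham, where 0.0178% of all genes were called (2 genes), and the log2 differences ran from -0.14 for Tyrobp to 0.14 for Plcg2. None of the 10 had an unadjusted p under 0.05 there. The interaction, which asks whether the TAC effect differs between genotypes, called 0% of all genes. It called none of the 10 genes by limma on RPKM or by limma-voom on recovered reads. By limma 2 of the 10 had an unadjusted p under 0.05, Csf1r (-0.85, SE 0.25, adjusted p = 0.163) and Plcg2 (-0.92, SE 0.37, adjusted p = 0.275). Without WT TAC mouse 9 the Plcg2 interaction passed (-1.30, adjusted p = 0.0285), in a fit that called 62 of all genes higher and 178 lower. The Fc receptor genes that rose in both genotypes, Fcgr3, Fcgr2b, Fcer1g, Syk and Vav1, had interaction estimates between -0.29 and 0.18, none called.

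To ask whether the genes tracked macrophage content, each gene's log2 level was taken relative to that of Csf1r, and separately to that of Cd68, in the same heart. The same fit was run for all genes, because a change of the reference moves every ratio. In WT hearts the ratio to Csf1r was called for 18.9% of all genes, in KI hearts for 37.6%, and in KI TAC against WT TAC for 77.3%. The ratio to Cd68 was called for 90.3%, 57.1% and 13.5% of genes in the same order.

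**Figure D3:**
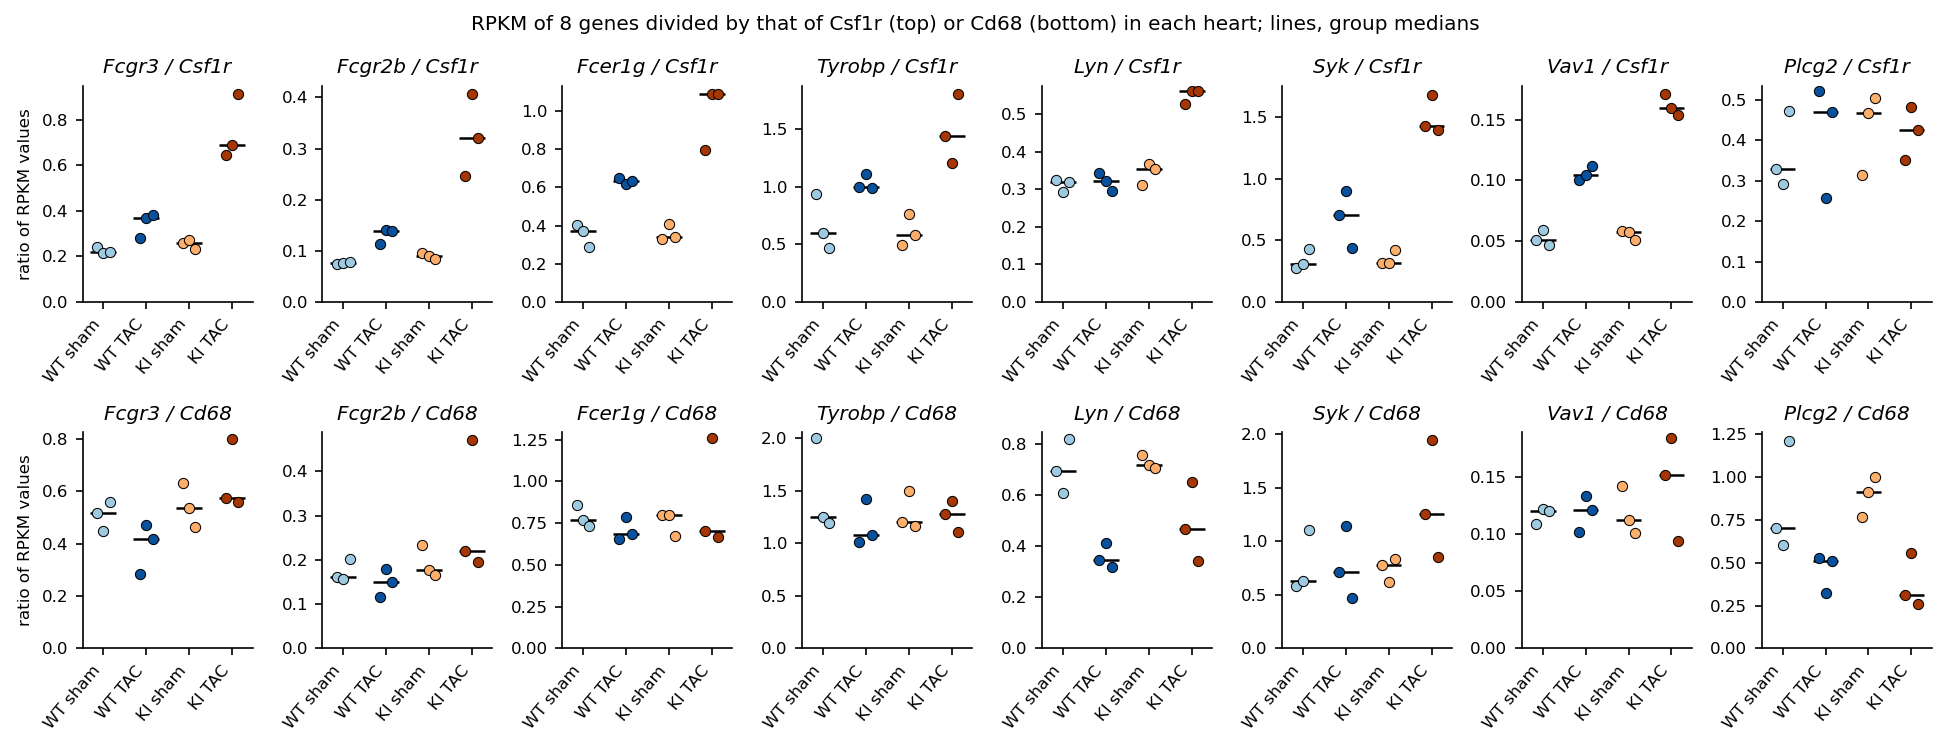
RPKM of 8 genes divided by the RPKM of Csf1r (top row) or Cd68 (bottom row) of the same heart (vertical axes, from 0), by group; points are hearts and lines are group medians. Ratios to Csf1r are highest in KI TAC hearts for 7 of the 8 genes, all but Plcg2. Csf1r itself was lowest in those hearts. In KI TAC against WT TAC the ratio to Csf1r was called for 77.3% of all genes. The share of all genes with their highest ratios in KI TAC hearts was not taken. Ratios to Cd68 overlap between TAC and sham hearts of both genotypes for Fcer1g, Fcgr2b, Fcgr3, Tyrobp and Vav1.

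Relative to Csf1r, Fcer1g was 0.40, 0.37 and 0.29 of the Csf1r RPKM in WT sham hearts and 0.65, 0.62 and 0.63 in WT TAC hearts. In KI sham hearts it was 0.33, 0.41 and 0.34, and in KI TAC hearts 0.79, 1.09 and 1.09. The Fcer1g ratio was thus above sham in all TAC hearts and above WT TAC in all KI TAC hearts. The log2 ratio rose by 0.73 in WT (SE 0.20, adjusted p = 0.0189), by 1.29 in KI (adjusted p = 0.000159) and by 0.59 from WT TAC to KI TAC (adjusted p = 0.0124). Syk behaved likewise, with 0.83 in WT (adjusted p = 0.0278), 1.87 in KI (adjusted p = 4.73e-05) and 1.11 between the TAC groups (adjusted p = 0.00108). The interaction of the ratio to Csf1r was called for 42.9% of all genes. It was called higher for 4 of the 9 genes other than Csf1r, namely Fcgr2b (0.97, adjusted p = 0.0157), Fcgr3 (0.88, adjusted p = 0.0214), Syk (1.03, adjusted p = 0.02997) and Vav1 (0.61, adjusted p = 0.0316), a share near that of all genes, and was 0.57 for Fcer1g (adjusted p = 0.0969). The 4 calls became 1 without WT sham mouse 3 and 2 without WT sham mouse 2, WT TAC mouse 7, KI sham mouse 1, KI TAC mouse 6 or KI TAC mouse 7. The interaction of the ratio to Cd68 was called for 0.872% of all genes and, by limma, for 0 of the 9, none of which had an unadjusted p under 0.05.

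Of the 9 genes other than Csf1r, the ratio to it was called higher for 3 in WT hearts (Fcer1g, Syk and Cd68), for 8 in KI hearts (all but Plcg2) and for 6 in KI TAC against WT TAC (Fcgr3, Fcgr2b, Fcer1g, Syk, Lyn and Vav1), and lower for none. Each count stands beside its share over all genes given above, and the count of 6 of 9 between the TAC groups is below that share. A ratio can rise while the gene does not, as for Lyn: its own level did not pass in any comparison, yet its ratio to Csf1r went from 0.31, 0.37 and 0.35 in KI sham to 0.53, 0.56 and 0.56 in KI TAC hearts (log2 ratio 0.61, adjusted p = 0.0122). The ratio of Plcg2 to Csf1r was not called in any of the 3 comparisons, with log2 changes of 0.11 in WT (adjusted p = 0.771), 0.04 in KI (adjusted p = 0.901) and 0.13 between the TAC groups (adjusted p = 0.629). The WT count of 3 became 1 without WT sham mouse 2 or mouse 3 and 0 without WT TAC mouse 7. Vav1 relative to Csf1r was not called in WT on the log2(RPKM + 1) scale (0.41, adjusted p = 0.0597). Its RPKM ratio to Csf1r was 0.05, 0.06 and 0.05 in WT sham and 0.10, 0.10 and 0.11 in WT TAC hearts.

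Relative to Cd68 the picture was different. Fcer1g was 0.86, 0.77 and 0.73 of Cd68 in WT sham, 0.66, 0.79 and 0.69 in WT TAC, 0.80, 0.80 and 0.67 in KI sham and 0.70, 1.26 and 0.67 in KI TAC hearts. All 4 groups overlapped, and the log2 ratio changed by -0.17 in WT (SE 0.30, adjusted p = 0.586) and by 0.11 in KI (adjusted p = 0.745). The ratio to Cd68 was called lower in WT for Lyn (-0.91, adjusted p = 0.00462), Plcg2 (-0.78, adjusted p = 0.0163) and Csf1r (-0.90, adjusted p = 0.00692), and in KI for Plcg2 (-1.14, adjusted p = 0.00225) and Csf1r (-1.18, adjusted p = 0.00173). These are 3 and 2 of the 9 genes, beside 90.3% and 57.1% of all genes. Fcgr3, Fcgr2b, Fcer1g, Tyrobp, Syk and Vav1 were among the genes whose ratio to Cd68 was not called in either genotype, with log2 changes from -0.54 (Fcgr2b in WT) to 0.69 (Syk in KI). These changes are of log2(RPKM + 1). The RPKM ratio of Fcgr2b to Cd68 was 0.16, 0.16 and 0.20 in WT sham and 0.12, 0.18 and 0.15 in WT TAC hearts. That of Vav1 was 0.11, 0.12 and 0.12 in WT sham and 0.10, 0.13 and 0.12 in WT TAC hearts, where its log2 change was -0.49. In KI TAC against WT TAC none of the 9 was called, and 2 were without WT TAC mouse 9 or without KI TAC mouse 7.

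Hearts of 1 group also differed among themselves. The deviation of each heart from its group mean on the log2(RPKM + 1) scale was compared between each of the 8 genes and each reference over the 12 hearts, 16 relations in all, with exact permutation tests that rearranged values within groups (1296 arrangements, two-sided). Over all other genes the median r was 0.17 with Csf1r and 0.24 with Cd68, and 1.85% and 1.59% of genes had r of 0.8 or more. Shares of all genes at a lower r or at a negative r were not taken. Vav1 (r = 0.92, exact p = 0.00154, adjusted p = 0.0247; rho = 0.85, exact p = 0.00926, adjusted p = 0.0494) and Lyn (r = 0.87, exact p = 0.00617, adjusted p = 0.0432; rho = 0.87, exact p = 0.00617, adjusted p = 0.0494) followed Csf1r. Tyrobp followed Cd68 (r = 0.74, exact p = 0.0108, adjusted p = 0.0432; rho = 0.76, exact p = 0.0216, adjusted p = 0.0864). Syk ran opposite to Cd68 (r = -0.67, exact p = 0.0108, adjusted p = 0.0432; rho = -0.76, exact p = 0.00540, adjusted p = 0.0494).

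The 12 remaining relations had adjusted p of 0.0885 or more by Pearson's r. With Csf1r, r was 0.69 for Fcer1g, 0.78 for Fcgr3, 0.60 for Fcgr2b, 0.58 for Tyrobp, 0.44 for Plcg2 and -0.54 for Syk. With Cd68, it was 0.64 for Fcer1g, 0.68 for Fcgr3, 0.70 for Lyn, 0.57 for Vav1, 0.40 for Plcg2 and 0.12 for Fcgr2b. Cd68 and Csf1r themselves had r = 0.65. Leaving out the 2 hearts farthest from the median of the reference (WT TAC mouse 10 and KI sham mouse 1 for Csf1r, KI TAC mice 6 and 7 for Cd68) gave r of 0.83 for Vav1 and 0.89 for Lyn with Csf1r, and 0.69 for Tyrobp and -0.77 for Syk with Cd68. With 144 and 216 arrangements left, no single relation could reach an adjusted p under 0.05 over 16 relations, so no call is read from those fits. Under quantile normalization r was 0.77, 0.64, 0.69 and -0.78 in the same order, with an adjusted p of 0.0957 for each.

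**Figure D4:**
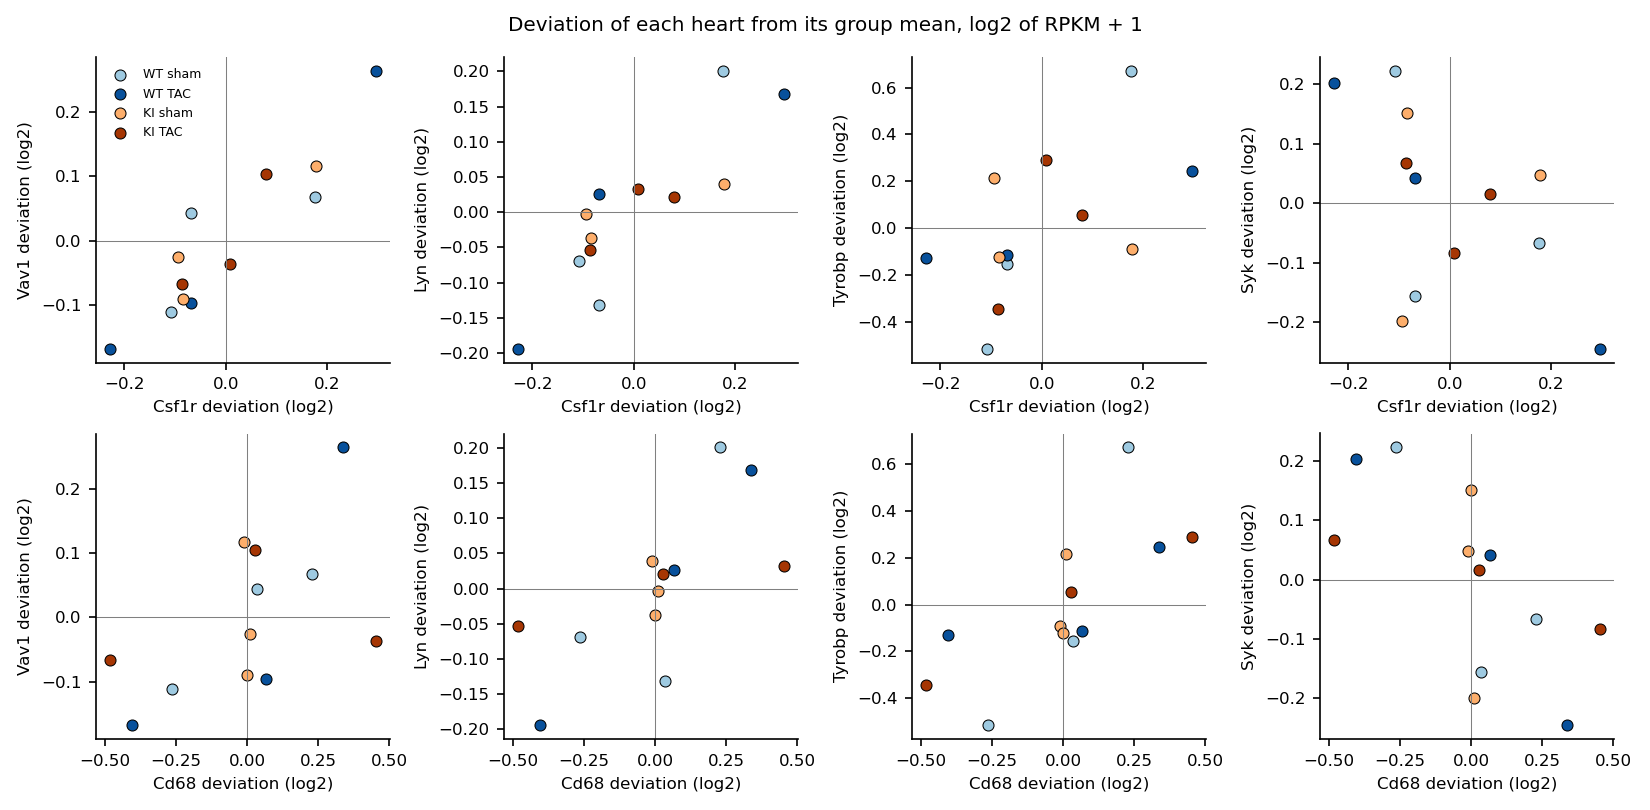
Deviation of each heart from its group mean on the log2(RPKM + 1) scale for Vav1, Lyn, Tyrobp and Syk (vertical axes) against that for Csf1r (top row) or Cd68 (bottom row, horizontal axes), colored by group, 12 hearts per panel. Vav1 and Lyn rise with Csf1r (r = 0.92 and 0.87) and Syk falls with Cd68 (r = -0.67).

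Other genes of the pathway gave a second view. Of 42 listed genes, 35 were in the table and 26 passed the filter. In WT hearts TAC raised 12 of the 26 and lowered none, with a median log2 difference of 0.57, against 6.96% higher over all genes. Among those with the largest differences were Rac2 (1.13, adjusted p = 0.000971), the Rac GTPase of blood cells, Clec4n (1.06, adjusted p = 0.000459), the fungal receptor Dectin-2 that signals through the Fcer1g chain, Fcgr1 (1.05, adjusted p = 0.00264), the high-affinity IgG receptor, Ptpn6 (1.04, adjusted p = 0.00110), the phosphatase SHP-1, Nckap1l (0.83, adjusted p = 0.0186) and Was (0.76, adjusted p = 0.00339), regulators of actin, and Dok2 (0.82, adjusted p = 0.0152), an inhibitory adaptor. By role, 4 of 8 brakes and 4 of 9 effectors were called. Of the 26 genes, 3 (Fcgr1, Clec4n and Pirb) reached 1 RPKM in no sham heart and so passed the filter only through TAC hearts, Fcgr1 only through those of WT mice. Among the other 23 genes, 9 were called in WT.

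In KI hearts 4 of the 26 rose and none fell, with a median of 0.24: Cblb (1.07, adjusted p = 0.00666), a ubiquitin ligase that limits receptor signaling, Pirb (0.86, adjusted p = 0.000353), an inhibitory receptor with ITIMs, Clec4n (0.78, adjusted p = 0.00168) and the adaptor Gab2 (0.65, adjusted p = 0.0122). The background was 8.57% higher. Without Clec4n and Pirb, which passed the filter only through TAC hearts, 2 of the other 23 genes were called. Under quantile normalization and under median-ratio scaling 7 rose and none fell, and without KI TAC mouse 7 there were 4 higher and 3 lower. Over all genes 12.1% and 13.8% were called higher and 12.9% and 11.3% lower under the 2 scalings. Without that mouse 7.58% were called higher and 16.8% lower.

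In KI TAC against WT TAC hearts 11 of the 26 were lower and none higher, with a median of -0.37, against 8.13% of all genes. Among the largest were Sirpa (-1.35, adjusted p = 0.00781), an inhibitory receptor for CD47 on macrophages, Fcgr1 (-0.996, adjusted p = 0.00706), Rac2 (-0.95, adjusted p = 0.00638), Pik3cd (-0.80, adjusted p = 0.0227), a leukocyte PI3-kinase, Vav2 (-0.79, adjusted p = 0.0381), Sos1 (-0.71, adjusted p = 0.0382) and Nckap1l (-0.70, adjusted p = 0.0428). Fcgr1 was at 2.70, 1.43 and 2.94 RPKM in WT TAC and at 0.56, 0.61 and 0.78 RPKM in KI TAC hearts, within the 0.36 to 0.87 RPKM of the 6 sham hearts. It passed the filter only through the 3 WT TAC hearts, and among the 23 genes that reached 1 RPKM in a sham heart 10 were called lower. Since the same WT TAC hearts enter both this comparison and that of WT TAC with WT sham, the overlap of the lists is no independent result. Fewer of the 26 were called under quantile normalization (6), under median-ratio scaling (6), in a fit of only the TAC hearts (2), without WT TAC mouse 7 (3), WT TAC mouse 10 (6), KI TAC mouse 5 (5) or KI TAC mouse 6 (3), with none higher in any of them. The share of all genes called lower fell in the same fits, from 8.13% to 5.45%, 4.74%, 1.25%, 1.01%, 5.55%, 3.85% and 1.11% in that order. The share called higher rose from 2.92% to 4.65% under quantile normalization and to 6.7% under median-ratio scaling.

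**Figure D5:**
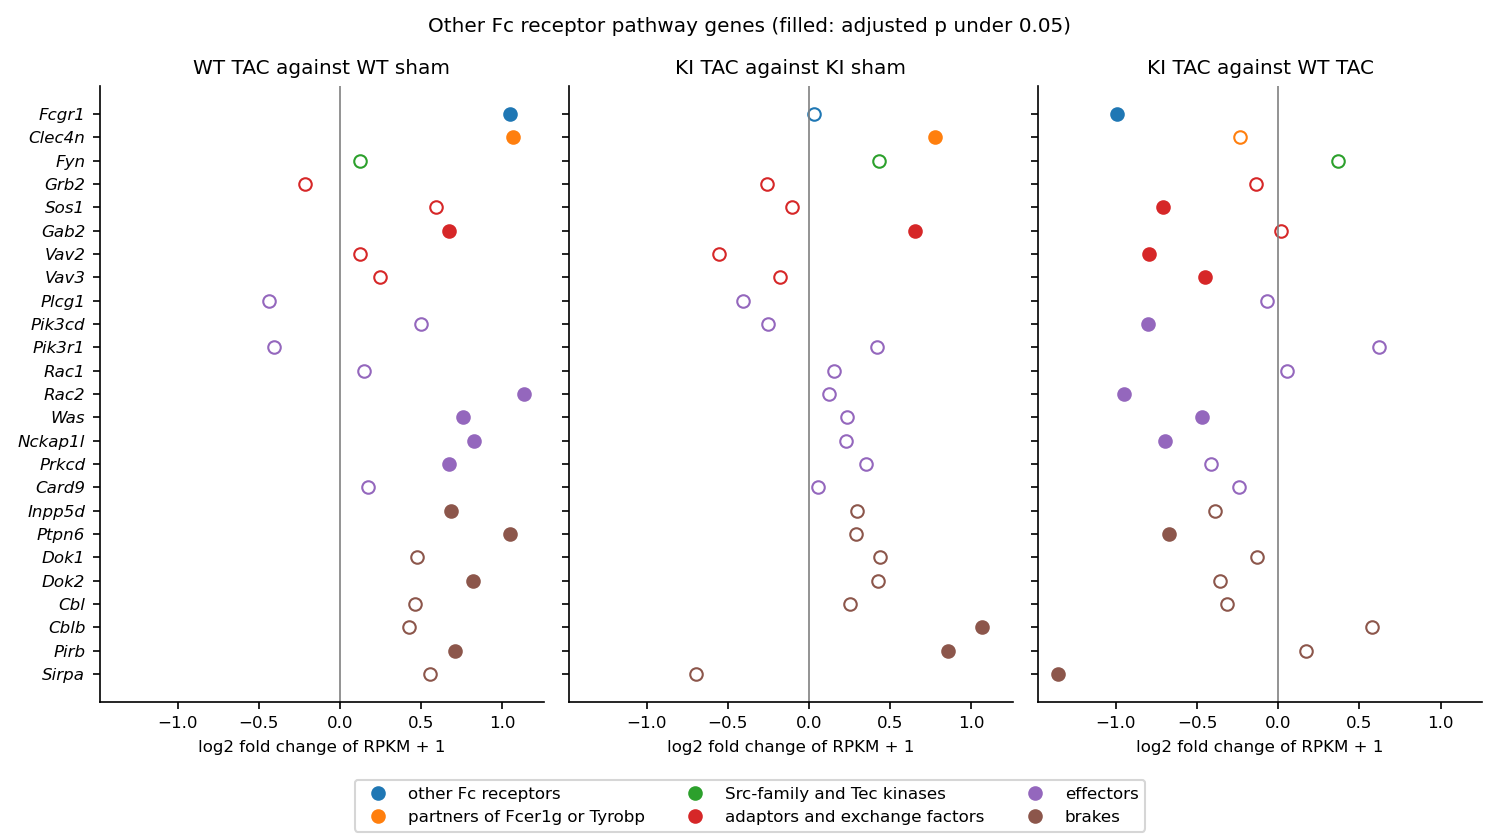
Difference of 25 other Fc receptor pathway genes in 3 comparisons, on the log2(RPKM + 1) scale (horizontal axis), colored by role; filled points passed an adjusted p of 0.05. In WT hearts 11 plotted genes are filled, all to the right of 0, and in KI TAC against WT TAC 10 are filled, all to the left.

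Markers of some leukocytes moved with the Fc receptor genes and others did not, and their part in these results was not tested. Of 12 macrophage markers 11 were in the table, and their summed level was 93.7 to 95.7 RPKM in WT sham, 107 to 172 in WT TAC, 84.9 to 105 in KI sham and 119 to 147 in KI TAC hearts. The most abundant, the complement genes C1qa, C1qb and C1qc, did not pass the test in any comparison (log2 differences from 0.30 to 0.47 in WT, 0.11 to 0.61 in KI and -0.24 to 0.16 between the TAC groups). Named after their values were seen, 3 macrophage markers were called higher in WT (Adgre1, Cx3cr1 and F13a1), 1 in KI (Lyve1), and 2 were lower in KI TAC hearts than in WT TAC hearts (Adgre1 at -1.15, adjusted p = 0.0135, and Cx3cr1 at -1.04, adjusted p = 0.0177). These are 3, 1 and 2 of 11, beside 6.96% and 8.57% of all genes called higher and 8.13% called lower. Of the 11 markers, 6 had a positive difference there and the median was 0.08, with values, given after they were seen, of 0.75 for Cd163, 0.73 for Lyve1 and 0.45 for Mertk, none called. F13a1 was at -0.41, also not called.

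Of 8 pan-leukocyte and myeloid markers, 7 were tested, and 7 rose in WT and 4 in KI hearts, beside 6.96% and 8.57% of all genes. Without Itgam, which reached 1 RPKM in no sham heart and so passed the filter only through TAC hearts, these were 6 and 3 of 6. In KI TAC against WT TAC hearts 2 of the 7 were called lower (Laptm5 at -0.99, adjusted p = 0.0167, and Coro1a at -0.87, adjusted p = 0.0237, both named after their values were seen) and none higher, with a median of -0.44, beside 8.13% of all genes lower. Their sum, most of it Lyz2, was 58.4 to 102 RPKM in WT sham, 136 to 188 in WT TAC, 62.8 to 87.0 in KI sham and 82.8 to 112 in KI TAC hearts. WT sham mouse 1, with the highest sham sum, also had the highest sham Fcer1g and Tyrobp. Lyz2, the lysozyme of myeloid cells, rose in WT (0.99, adjusted p = 0.0228) but gave 0.09 in KI (adjusted p = 0.837), while the integrin chain Itgb2 rose in both (1.40, adjusted p = 0.00263, and 1.05, adjusted p = 0.00598). Of 4 monocyte markers 2 were in the table: Chil3 rose in WT (1.98, adjusted p = 0.000147) and was lower in KI TAC hearts than in WT TAC hearts (-1.40, adjusted p = 0.00461), with only the 3 WT TAC hearts reaching 1 RPKM, and Ccr2 was at 0.88 to 1.98 RPKM in WT TAC hearts and at most 0.24 RPKM in the other 9.

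Neutrophil markers summed to at most 1.27 RPKM in sham hearts, 3.69 to 9.87 in WT TAC and 4.18 to 20.3 in KI TAC hearts. Of the 3 in the table, 2 were called higher in WT and 3 in KI hearts, beside 6.96% and 8.57% of all genes, S100a9 by 1.58 (adjusted p = 0.0137) and 2.77 (adjusted p = 0.000228). All 3 reached 1 RPKM in no sham heart and so passed the filter only through TAC hearts, which leaves no gene for a count without them. Of 6 mast cell markers, 2 were in the table, with Kit tested and not called. Hdc, the histamine-forming enzyme, did not pass the filter and was at 0.23 to 0.26 RPKM in KI sham and 0.46 to 0.77 RPKM in KI TAC hearts (log2 difference 0.37, adjusted p = 0.0171 without the filter), against 0.16 to 0.50 RPKM in WT TAC hearts. The mast cell sum was 0.65 to 1.62 RPKM in sham and 1.09 to 2.16 RPKM in TAC hearts. None of 4 B cell and none of 6 T and NK cell markers was in the table used here. Platelet genes (Pf4 and Ppbp tested) and 4 endothelial genes were not called in any of these comparisons. The endothelial gene Pecam1 just missed the threshold in KI TAC against KI sham (0.50, adjusted p = 0.0502), with no overlap of the groups. Without the filter its adjusted p was 0.0464. Of 6 cardiomyocyte genes, 1 was called in each of these comparisons: Myh6 fell in WT (-1.15, adjusted p = 0.0129), Pln fell in KI (-0.93, adjusted p = 0.0281), and Myl2 was higher in KI TAC hearts than in WT TAC hearts (0.86, adjusted p = 0.0447). Over all genes 4.60% were called lower in WT, 14.7% lower in KI and 2.92% higher between the TAC groups. Of 4 fibroblast genes, Lum fell after TAC in KI hearts (-1.14, adjusted p = 0.0476), beside the same 14.7% of all genes called lower. The sum of the 4 was 542 RPKM in WT TAC mouse 10, against at most 246 RPKM in the other 11. That mouse was also the highest WT TAC heart for 9 of the 10 genes, all but Syk.

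The genes whose pattern over the 12 hearts was most like that of Csf1r, by Pearson's r of log2(RPKM + 1) and including the differences between groups, were Pknox2 (0.96), Pld4 (0.95), Alg9 (0.94), Rubcn (0.94) and Stab1 (0.94). For Fcer1g they were Frzb (0.97), Wdr1 (0.96), Clec4n (0.96), Ctss (0.96) and Tubb4b (0.95). All 5 neighbors of Csf1r were lower in KI TAC hearts than in WT TAC hearts, as Csf1r was, by -1.07 (Rubcn) to -0.65 (Pknox2). The 5 neighbors of Fcer1g rose in WT hearts by 0.89 (Tubb4b) to 1.38 (Frzb) and were not called between the TAC groups. The lists do not overlap, and these differences follow from how the genes were chosen.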

How the data were processed

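RNA was sequenced from 12 mouse hearts, 3 per group. Per the methods, poly(A) libraries were strand-specific, and reads were trimmed with Trimmomatic, mapped with HISAT2 to GRCm38 and counted on genes with HTSeq by the authors. The deposited values are RPKM, which the authors made from those counts; the step is not given in the sources used here. Reads recovered over the listed genes summed to 99.8% to 100.2% of the library size that the steps of low values imply, so no further scaling between libraries was seen.

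Groups were taken from the labels. On log2(RPKM + 1), the 11240 of 13552 genes that reached 1 RPKM in 3 or more mice were fitted with limma 3.58.1 in R 4.3.3 (4 groups, 12 mice, trend), and p-values were adjusted over all genes (Benjamini-Hochberg, threshold 0.05). The study's count-based test was not used, because the table holds RPKM. Ratios were fitted after subtracting the log2(RPKM + 1) value of Csf1r or Cd68, and correlations used exact permutation. Whole reads recovered from RPKM steps (97.2% to 98.0% of low values whole within 0.05) served for depth and for limma-voom. The scripts were tested on simulated data.

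The 10 genes and the lists were chosen with earlier results of these data known. The text names the 10 genes, the 8 largest called pathway genes per comparison, up to 3 abundant genes per marker list (other markers were named after their values were seen) and the 5 genes nearest to Csf1r and to Fcer1g. A listed pathway gene is included in the counts but not reported here by name. Nothing in the labels says that hearts of a group share a litter or day. Upstream windows were from RefSeq (GRCm38.p6) and coding stretches from GENCODE M21. The alternatives were pseudocount, filter, scaling, limma-voom, fits of fewer groups, a replicate block and leaving out each mouse.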

Additional observations from a re-analysis of the deposited data

Results flagged for a closer look

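The TAC effect on the level relative to Csf1r was larger in KI than in WT hearts by the interaction test of limma for 4 of the 9 genes other than Csf1r, about the same share as the 42.9% of all genes that passed it. The difference of the log2 ratios was 0.97 for Fcgr2b, 0.88 for Fcgr3, 1.03 for Syk and 0.61 for Vav1. Leaving out 1 mouse at a time gave 1 to 6 such genes, and none of the 4 passed the test by its own level or relative to Cd68.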

How the results depend on the processing

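Of the single-gene differences recomputed under the alternatives, 602 kept their direction and side of the threshold, 28 lost the call, 9 gained one and 21 changed direction, none of them called. In KI sham against WT sham, Vav1 was -0.012 under quantile normalization. With each mouse left out in turn the same comparison gave -0.20 to 0.13 for Fcer1g, -0.40 to 0.20 for Tyrobp, -0.063 to 0.13 for Syk, -0.0056 to 0.16 for Lyn, -0.047 to 0.057 for Vav1, -0.0064 to 0.26 for Plcg2, -0.11 to 0.13 for Cd68 and -0.15 to 0.030 for Csf1r. Fcgr3 ranged from -0.037 to 0.32 in KI TAC against WT TAC and from -0.12 to 0.23 in the interaction. The correlation of Fcgr2b with Cd68 was -0.21 under quantile normalization.

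With each mouse left out in turn, the number of the 10 genes called was 4 to 7 in WT, 2 to 6 in KI, 0 to 2 in KI TAC against WT TAC, 0 to 1 in the interaction and 0 throughout in KI sham against WT sham. Ratios to Csf1r were called for 0 to 3, 8 and 6 to 7 genes in the first 3 comparisons, and ratios to Cd68 for 2 to 3, 2 to 3 and 0 to 2. The interaction of the ratios, added after seeing the data, was called for 1 to 6 genes with Csf1r and for 0 with Cd68. Of the other pathway genes, 8 to 11, 3 to 7 and 3 to 12 were called. In a fit of only the TAC hearts 0 of the 10 genes and 2 pathway genes differed. A pseudocount of 0.1 RPKM gave 5 ratios to Csf1r in WT. Quantile normalization gave 7 pathway genes in KI, 6 between the TAC groups and 1 ratio to Cd68 there, and median-ratio scaling gave 7 and 6 pathway genes. The correlation counts of 2 and 2 fell to 0 under quantile normalization, the cause of which was not tested, and to 0 without the 2 hearts deviating most, where 144 or 216 arrangements are too few for a single relation to pass. The alternatives for the other pathway genes, and their counts without genes that passed the filter only through TAC hearts, were added after seeing the data. Over all genes, the share of calls that were higher moved from 60.2% to 48.1% and 50.2% in WT, from 36.8% to 48.3% and 55.0% in KI, and from 26.4% to 46.0% and 58.6% between the TAC groups under quantile normalization and median-ratio scaling. The replicate block over the numbers that the sham groups share called 0 of the 10 genes, as without it. Same-numbered sham mice had correlations of deviations of -0.22, -0.30 and 0.44. Pairs of unlike number ran from -0.35 (WT sham mouse 3 with KI sham mouse 2) to 0.43 (WT sham mouse 1 with KI sham mouse 2). Deviations from means of 3 hearts depend on each other, so these values do not settle whether the numbers pair the mice. limma-voom called the 10 genes as the main fit did. The lowest read numbers were those of Vav1 in sham hearts, 54 to 96 reads.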
